A study of Arabidopsis thaliana with 12 samples.

Results

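The comparison described here sets root tips of the scl5 scl21 pat1 triple mutant of Arabidopsis thaliana against those of Col-0, the wild-type accession, after both genotypes had been kept on bleomycin. It comprises 6 of the 12 RNA-seq libraries of the series, chosen by genotype and treatment label: 3 of the triple mutant under bleomycin and 3 of Col-0 under bleomycin. For each of these libraries about 100 seeds were sown on nylon mesh over MS agar, the mesh was moved 7 days later to medium with 0.5 µg/ml bleomycin for 24 h, and tips of 0.2 cm were cut for RNA. The other 6 libraries are the same genotypes moved to medium without the drug, again 3 of the triple mutant and 3 of Col-0, and they are used for the spread between replicates and for side-by-side values. Replicates are called biological in the labels. The labels name the mutated genes but not the alleles, and each library pools the tips of many seedlings.

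Bleomycin breaks DNA strands, and in roots it kills stem cells near the tip, which neighbouring cells then replace by extra divisions. SCL5, SCL21 and PAT1 belong to the PAT1 branch of the GRAS family of plant transcriptional regulators. ERF115, an ethylene response factor made by cells next to dead or wounded ones, is known to act together with PAT1-type GRAS proteins in this replacement. The title of the series names DOF3.4, a DOF-type transcription factor, as a gene that PAT1-type proteins activate after wounding to drive cell proliferation. The comparison addresses which transcripts differ in bleomycin-treated tips when the 3 GRAS genes are mutated.

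Sequencing depth was even, at 36.3 to 40.9 M reads per library, and a gene with 3 reads in 1 library stood at 0.0734 to 0.0827 CPM (reads scaled to library size). Levels below are CPM per library in the order of the replicate numbers 1, 2 and 3. The 6 bleomycin libraries did not group by genotype in a principal component analysis of log2 CPM. On the first component, with 33.1% of the variance, library 1 of the triple mutant stood at 46.9 and library 1 of Col-0 at 51.5, while the other 4 libraries lay between -78.4 and 4.4. On the second, with 24.4%, library 3 of the triple mutant stood at -51.7 and library 3 of Col-0 at -44.1, and the other 4 libraries lay between 6.3 and 56.8. The libraries numbered 2 lay apart, at -20.1 for the triple mutant and -78.4 for Col-0 on the first component, and on PC3, with 21.4%, they stood at opposite ends, at -54.2 for the triple mutant and 45.8 for Col-0. On PC3 the triple mutant lay below Col-0 at the other numbers too. Library 1 stood at 14.7 in the triple mutant and 33.2 in Col-0, and library 3 at -31.7 and -7.8. The genotypes still overlapped on PC3, since triple mutant library 1 lay above Col-0 library 3. Over all genes, deviations from the group mean correlated more in each of the 3 same-number pairs than in any other pair of the genotypes, and the comparison was also fitted with the replicate number as a block.

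**Figure D1:**
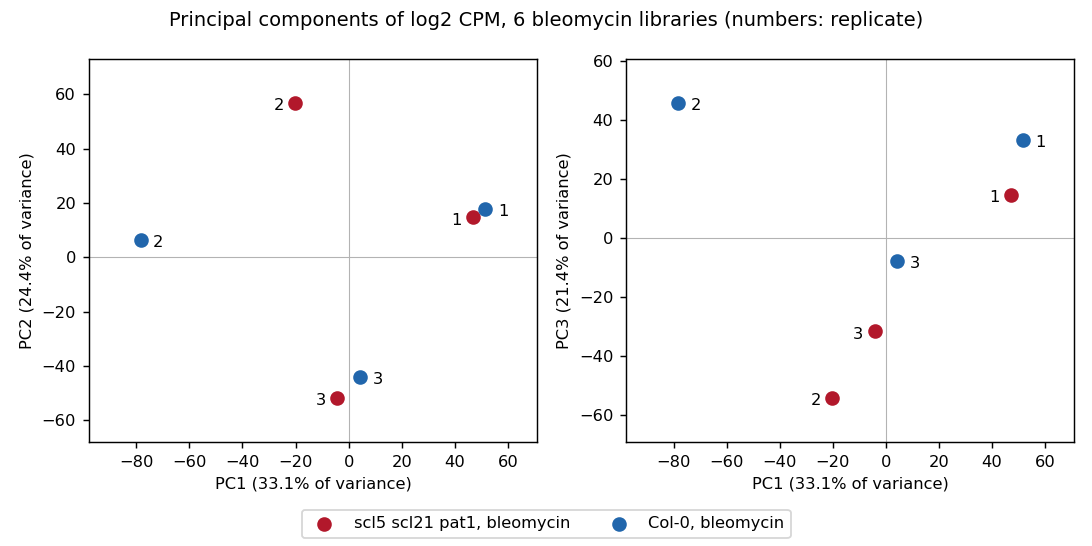
Scores of the 6 bleomycin libraries on principal components PC1 and PC2 (left) and PC1 and PC3 (right) of log2 CPM, in units of the component; red points are the triple mutant, blue points Col-0, and the numbers are replicate numbers. Both library 1 points lie together on the right of the left panel, at 46.9 for the triple mutant and 51.5 for Col-0 on PC1, and both library 3 points lie together at its bottom, at -51.7 for the triple mutant and -44.1 for Col-0 on PC2. The library 2 points are the farthest apart on PC3, at -54.2 for the triple mutant and 45.8 for Col-0, and for every number the triple mutant point lies below the Col-0 point on PC3.

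Few genes were called between the genotypes under bleomycin. Of 21561 genes tested with edgeR's quasi-likelihood test, 6 passed an adjusted p of 0.05, which is 0.0278% of the genes tested. AT1G64795 was the 1 gene that was higher in the triple mutant (0.00464%), and SCL5, SCL21, PAT1, AT2G04900 and AT5G35940 were the 5 that were lower (0.0232%). With the replicate number as a block, 10 genes passed (0.0464%), and these included all 6. The 4 added genes, QQS, AT4G04223, AT5G33395 and MPL1, brought those lower in the triple mutant to 9 (0.0417%).

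Across all genes the median log2 fold change, triple mutant over Col-0, was -0.01 and the quartiles were -0.13 and 0.09. The 95% interval of a log2 fold change, given below in brackets, had a median half-width of 0.45, and for 71.2% of genes the whole interval lay within a 2-fold change in either direction. Unadjusted p-values below 0.05 were found for 226 genes, or 1.05% of those tested, and with the block for 361 (1.67%). Both shares are smaller than the share of 0.05 that evenly spread p-values would give, so the test was sparing with these data. A gene that was not called is therefore not shown to be equal between the genotypes. The 3 libraries of the triple mutant did not overlap with the 3 of Col-0 at 1100 genes, which is 5.1% of those tested, 515 of them higher (2.39%) and 585 lower (2.71%). DESeq2 called 22 genes (0.0816% of 26946), of which 3 were higher in the triple mutant (0.0111%), and all 10 of the blocked fit were among the 22. A fit of the 6 bleomycin libraries alone called 4 genes (0.0192% of 20826) and, with the block, 14 (0.0672%). The call count was 10, of 22029 genes tested, when triple mutant control 3 was left out. That library stands apart from the other 11 in a principal component analysis. It is in neither group of the bleomycin comparison and enters it through the shared filter on low counts, scaling and spread.

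**Figure D2:**
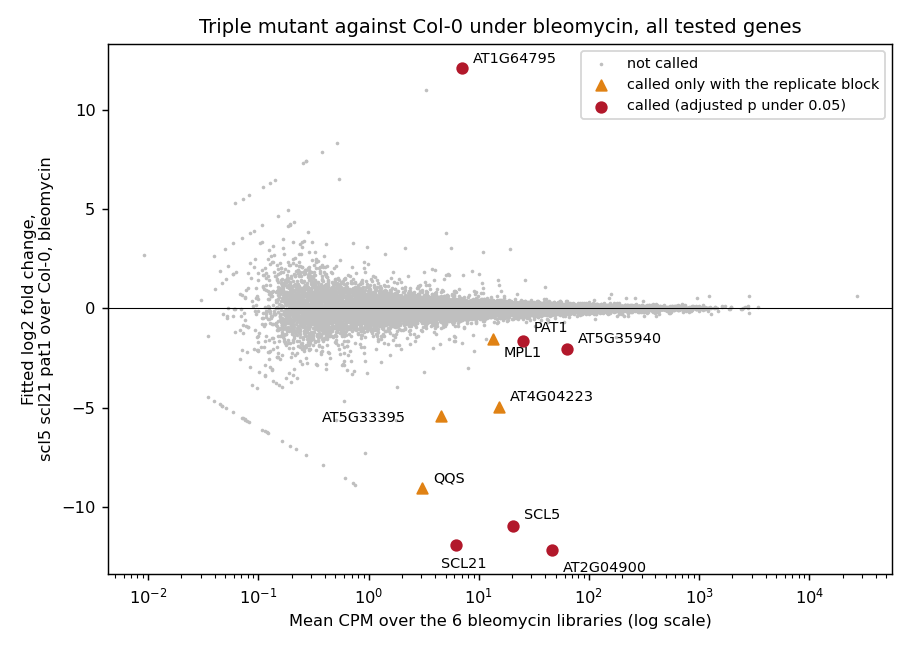
Fitted log2 fold change of the triple mutant over Col-0 under bleomycin for 21561 genes, against the mean CPM of the 6 bleomycin libraries on a log scale; red circles passed an adjusted p of 0.05, orange triangles passed only with the replicate block, and grey points passed neither. The 6 red circles and 4 orange triangles stand away from a cloud centred at -0.01, and AT1G64795 is the 1 of them that lies above 0; fitted values of genes at or near 0 reads in 1 genotype are not measured folds.

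The 3 mutated genes were the first check of the labels, and each library carried the pattern of its genotype. SCL5 (AT1G50600) had 0, 0.049 and 0 CPM in the triple mutant, 2 reads in total, against 44.1, 36 and 41.8 CPM in Col-0. The ratio of Col-0 to the triple mutant was 2403 with a 95% counting interval of 665 to 19852, and the edgeR adjusted p was 1.07e-08. SCL21 (AT2G04890) had 0 reads in the 3 triple mutant libraries, against 12.1, 14.8 and 10.2 CPM in Col-0. Its level was at least 490-fold lower in the triple mutant, counted against 3 reads over that group (edgeR adjusted p = 2.97e-05). Of the 3 mutated genes, SCL5 and SCL21 were thus close to absent from the reads.

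PAT1 (AT5G48150) fell but was still read in the triple mutant. It stood at 10.2, 16.9 and 9.77 CPM in the triple mutant, against 36.1, 43.3 and 34.3 CPM in Col-0. The groups did not overlap, and library 2 was the highest of both. Its fold change was -1.62 on the log2 scale (SE 0.19, edgeR adjusted p = 0.00449), with a 95% interval of -2.03 to -1.22. On control medium the values were 9.34, 9.53 and 9.73 CPM in the triple mutant and 26.1, 26.0 and 25.5 CPM in Col-0, a log2 fold change of -1.44 (edgeR adjusted p = 0.0171, or 0.12 without triple mutant control 3). In the authors' transcript abundances, in TPM, the transcript AT5G48150.4 had 5.0, 4.86 and 3.74 in the triple mutant and 10.7, 8.51 and 7.75 in Col-0. AT5G48150.3 had 0.532, 3.56 and 2.90 TPM in the triple mutant and 14.8, 11.1 and 17.64 TPM in Col-0, so the gap was wider for it than for AT5G48150.4 in each library pair. AT5G48150.1 had 0, 0.721 and 0 TPM in the triple mutant and 0.184, 6.97 and 0.574 TPM in Col-0, so it was read mainly in Col-0 library 2. AT5G48150.2 had 0 TPM in every library. These are estimates of how reads are shared between transcripts of 1 gene, and they were not tested. The call of PAT1 was lost in the fit of the 6 bleomycin libraries alone (adjusted p = 0.248) and in no other of 25 alternatives.

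The remaining measured members of the PAT1 branch were near their Col-0 levels. SCL13 (AT4G17230) had 40.2, 57.2 and 46.6 CPM in the triple mutant and 40.0, 62.6 and 47.6 CPM in Col-0, a log2 fold change of -0.06 with a 95% interval of -0.52 to 0.40. SCL1 (AT1G21450) stood at -0.16 (-0.52 to 0.21) and SCL8 (AT5G52510) at -0.08 (-0.44 to 0.28) on the same scale. The libraries of the genotypes overlapped at these 3 genes. None of the 19 measured GRAS genes outside the branch was called (0.0278% over all genes). They had a median log2 fold change of 0.00, and the member with the lowest p was RGL3 (AT5G17490), a DELLA repressor of gibberellin responses, at -0.24 (-0.77 to 0.30).

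An uncharacterised locus next to SCL21 followed the pattern of the mutated genes. AT2G04900 had 0, 0 and 0.0502 CPM in the triple mutant, 2 reads in all, against 79.4, 113 and 85.6 CPM in Col-0. The ratio of Col-0 to the triple mutant was 5488 with a counting interval of 1519 to 45322 (edgeR adjusted p = 3.76e-08). In the RefSeq annotation this locus overlaps SCL21 on the opposite strand, and the counting is not stated to use strand, so reads of the pair cannot be told apart with certainty. ZAP1 (AT2G04880), a WRKY transcription factor gene on the other side of SCL21, had 26.0, 27.1 and 20.3 CPM in the triple mutant and 29.6, 27.0 and 25.4 CPM in Col-0, with overlap and a log2 fold change of -0.16 (-0.46 to 0.14). Within 20 loci on each side, AT2G04900 was the 1 called gene of 13 tested around SCL21, and none was called of 24 tested around SCL5 or of 29 tested around PAT1.

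AT1G64795 was the 1 gene that rose. This uncharacterised locus had 10.7, 21.6 and 9.84 CPM in the triple mutant and 0 reads in the 3 Col-0 libraries. It was at least 546-fold higher in the triple mutant, counted against 3 reads over the Col-0 group (edgeR adjusted p = 5.08e-05). Without the drug it stood at 10.1, 14.7 and 8.43 CPM in the triple mutant, against 0.0246, 0 and 0 CPM in Col-0, so the groups did not overlap in either medium. The locus lies within the annotated span of ILA (AT1G64790), a gene of translation and defence, which had 194, 180 and 218 CPM in the triple mutant and 234, 161 and 191 CPM in Col-0 (log2 fold change 0.01, 95% interval -0.29 to 0.32). Sharing of reads between overlapping loci is an estimate of the quantifier. Its call was lost with limma voom (adjusted p = 0.624), where the other 5 calls held.

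AT5G35940, annotated as a mannose-binding lectin, fell in the triple mutant. It had 28.2, 18.7 and 27.6 CPM in the triple mutant, against 62.1, 107 and 136 CPM in Col-0. The groups did not overlap, and the Col-0 libraries varied by more than those of the triple mutant, with means of 24.9 ± 5.3 CPM in the triple mutant and 102 ± 37 CPM in Col-0 (SD, n = 3 each). Its log2 fold change was -2.03 (SE 0.27, edgeR adjusted p = 0.0141). Without the drug it stood at 35.8, 28.6 and 35.5 CPM in the triple mutant and 63.6, 90.5 and 103 CPM in Col-0, where its change of -1.36 was not called (edgeR adjusted p = 0.301). The difference between the media was -0.67 (95% interval -1.45 to 0.12). The call under bleomycin was lost without triple mutant library 1, 2 or 3 (adjusted p = 0.0608, 0.122 and 0.088) or Col-0 library 2 or 3 (0.0618 and 0.0512), in the fit of 6 libraries (0.237) and in the test against a fold of 1.5 (0.0681). With the block it was lost without triple mutant library 2 (0.0629) or 3 (0.0593).

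The locus beside it, AT5G35935, showed values of the opposite direction. It had 27.9, 40.7 and 34.2 CPM in the triple mutant, against 10.2, 2.00 and 0.563 CPM in Col-0. The groups did not overlap, and Col-0 library 1 was well above Col-0 libraries 2 and 3. The log2 fold change of 3.01 (SE 0.80) was not called by edgeR's quasi-likelihood test (adjusted p = 1, or 0.313 with the block). On control medium the values were 32.7, 40.1 and 38.2 CPM in the triple mutant and 11, 1.56 and 2.75 CPM in Col-0.

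**Figure D3:**
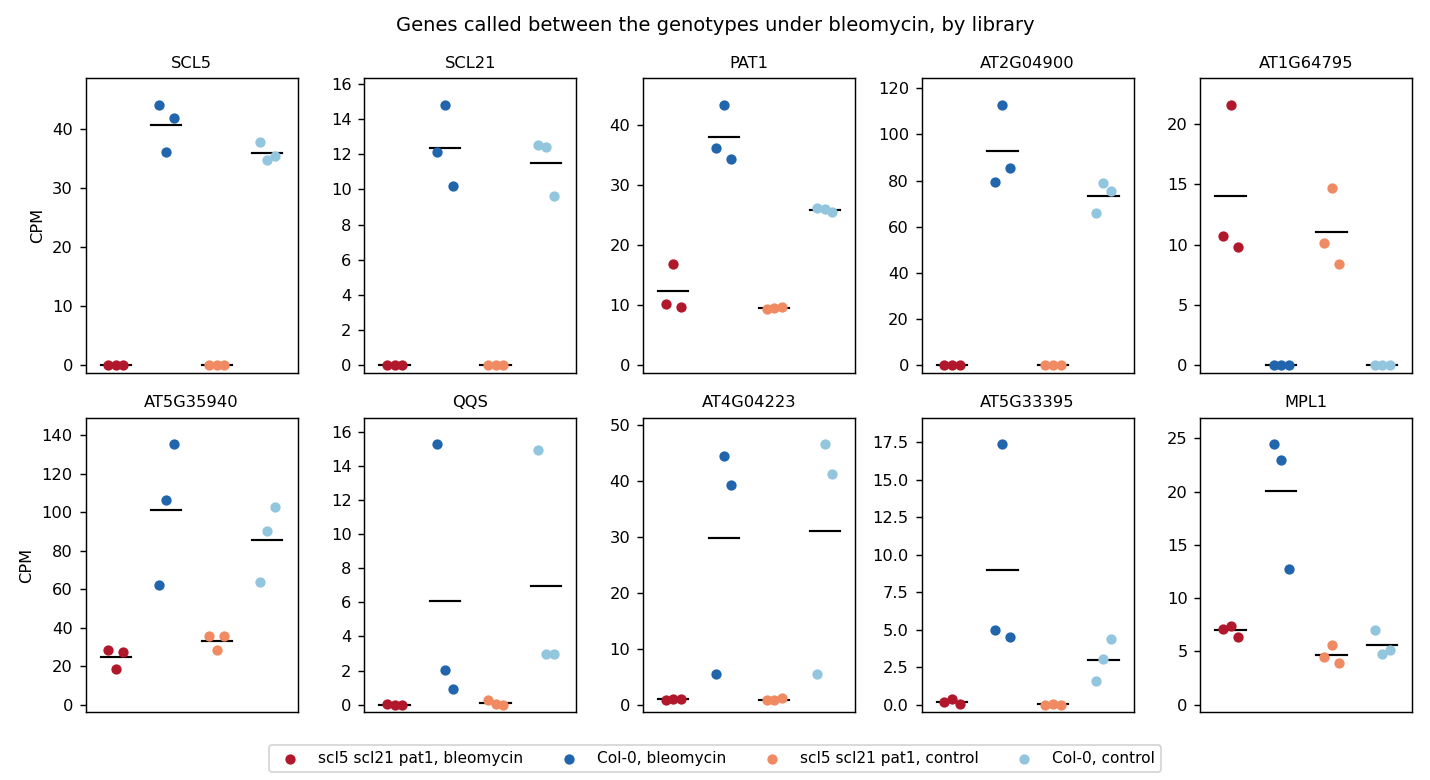
CPM by library for the 6 genes called between the genotypes under bleomycin and the 4 called only with the replicate block (QQS, AT4G04223, AT5G33395, MPL1); points are libraries in the order of their numbers and bars are group means, with triple mutant bleomycin, Col-0 bleomycin, triple mutant control and Col-0 control from left to right on linear axes. SCL5, SCL21 and AT2G04900 lie at or near 0 in every triple mutant library, AT1G64795 lies at or near 0 in every Col-0 library, and MPL1 shows a gap between the genotypes under bleomycin, at 6.38 to 7.43 CPM in the triple mutant and 12.7 to 24.5 CPM in Col-0.

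MPL1 (AT5G14180), a lipase gene named for its induction by aphid feeding, was called with the replicate block. It had 7.11, 7.43 and 6.38 CPM in the triple mutant, against 24.5, 23.0 and 12.7 CPM in Col-0. The groups did not overlap, and Col-0 library 3 was the lowest of its group. Its log2 fold change was -1.48 with the block (edgeR adjusted p = 0.0295) and -1.52 without it (SE 0.26, adjusted p = 0.109). The blocked call was lost without triple mutant library 1, 2 or 3 (adjusted p = 0.302, 0.313 and 0.0989) or Col-0 library 1 or 2 (0.268 and 0.306). On control medium the genotypes overlapped, at 4.46, 5.65 and 3.88 CPM in the triple mutant and 7.0, 4.76 and 5.14 CPM in Col-0. The difference between the media in its genotype effect was -1.25 (95% interval -2.03 to -0.48) and was not called over all genes (edgeR adjusted p = 1).

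QQS (AT3G30720), an orphan gene that influences starch content, was called with the block as well. It had 0.0274, 0 and 0 CPM in the triple mutant, 1 read in total, against 15.3, 2.05 and 0.939 CPM in Col-0. Col-0 library 1 was far above Col-0 libraries 2 and 3, and none of the 3 overlapped with the triple mutant. The ratio of Col-0 to the triple mutant was 737 with a counting interval of 132 to 29160, and the edgeR adjusted p was 0.000231 with the block and 0.187 without it. Without Col-0 library 1 the ratio was 180 with a counting interval of 31.7 to 7183, and the blocked call held (adjusted p = 0.0035). The noncoding locus AT4G04223 had 0.823, 1.079 and 0.979 CPM in the triple mutant, against 5.53, 44.5 and 39.4 CPM in Col-0. Here Col-0 library 1 was the lowest of its group, and the log2 fold change was -4.63 with the block (adjusted p = 0.00588) and -4.95 without it (0.109). Its blocked call was lost without triple mutant library 2 (adjusted p = 0.12) or 3 (0.0838).

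AT5G33395, an uncharacterised locus, had 0.165, 0.392 and 0.0502 CPM in the triple mutant, against 4.98, 17.41 and 4.51 CPM in Col-0. Library 2 was the highest of both groups, which did not overlap. The log2 fold change was -5.39 with the block (edgeR adjusted p = 0.00631) and -5.44 without it (0.0573). The blocked call was lost without library 2 of the triple mutant (adjusted p = 0.0979) or of Col-0 (0.18), and without the triple mutant's or Col-0's library 2 the unblocked value was -6.36 or -4.53. In control libraries it was called without the block, at -7.16 (edgeR adjusted p = 0.0472), and not without triple mutant control 3 (adjusted p = 0.428). Its neighbour AT5G33390, a glycine-rich protein gene called by DESeq2 and named after its values were seen, had 1 read in the triple mutant and 1.5, 2.43 and 1.66 CPM in Col-0.

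Wound-induced ethylene response factors and NAC factors were called at none of 13 measured members of 17 (0.0278% over all genes). Of the 13, ERF114, ERF115 and NAC096 had an unadjusted p below 0.05 without the block, as did 1.05% of all genes. The median log2 fold change of the 13 was -0.17, against -0.01 for all genes, and 8 lay below 0, as did 53.4% of all genes. At 3 of the 13 the groups were apart and lower in the triple mutant, as at 2.71% of all genes. ERF114 (AT5G61890), a close relative of ERF115, had 3.57, 3.51 and 2.64 CPM in the triple mutant, against 11, 15.2 and 6.68 CPM in Col-0. Every Col-0 library lay above every triple mutant library, and all 6 control libraries had 0 reads, so that the gene was read only with bleomycin in both genotypes. Its log2 fold change was -1.76 (95% interval -2.63 to -0.89, edgeR adjusted p = 1). It was called in the blocked fit of the 6 bleomycin libraries (adjusted p = 0.0459) and by DESeq2 (0.0231), and in none of the other 23 alternatives.

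ERF115 (AT5G07310) had 1.54, 3.14 and 1.33 CPM in the triple mutant, against 6.79, 10.9 and 2.98 CPM in Col-0. Library 2 was the highest of both groups, and triple mutant library 2 lay above Col-0 library 3, so the groups overlapped, although within each number the triple mutant was the lower. This gave a log2 fold change of -1.78 (SE 0.55), with a 95% interval of -2.99 to -0.57 and an edgeR adjusted p of 1 (0.147 to 1 over the alternatives). In control libraries it was at 0 reads in the triple mutant and at 0.0491, 0.0807 and 0.126 CPM in Col-0.

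NAC096 (AT5G46590), a NAC factor linked to tissue reunion, had 2.74, 2.99 and 2.61 CPM in the triple mutant and 9.34, 9.92 and 4.67 CPM in Col-0. NAC071 (AT4G17980), which acts in tissue reunion of cut stems, had 0.192, 0 and 0.201 CPM in the triple mutant and 1.70, 1.42 and 0.295 CPM in Col-0. Neither gene's groups overlapped, and Col-0 library 3 was the lowest Col-0 library at both, as it was at ERF114 and ERF115. The log2 fold changes were -1.52 (-2.54 to -0.50) for NAC096 and -3.10 (-6.52 to 0.33) for NAC071, both with an edgeR adjusted p of 1. WIND1 (AT1G78080), a factor of wound-induced callus, had 164, 214 and 167 CPM in the triple mutant and 223, 257 and 177 CPM in Col-0, a log2 fold change of -0.27 with a 95% interval of -0.58 to 0.04. With the block the value was again -0.27, with an unadjusted edgeR p of 0.0298, and WIND1 was not called. An unadjusted p below 0.05 with the block was found for 1.67% of all genes. RAP2.6L (AT5G13330), a group X factor of stem healing, stood at -0.06 (-0.38 to 0.26). In bulk tips, fewer cells that make a transcript and less of it per cell cannot be told apart, here or at any other gene.

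DOF3.4 (AT3G50410), the gene in the series' title, was read at low levels in every bleomycin library. It had 0.357, 0.123 and 0.276 CPM in the triple mutant (13, 5 and 11 reads), against 1.13, 2.252 and 1.40 CPM in Col-0 (45, 89 and 52 reads). All Col-0 libraries were above all triple mutant libraries. The log2 fold change of -2.65 (SE 1.2) was not called, with an edgeR adjusted p of 1 and a 95% interval of -5.24 to -0.05, or -5.33 to 0.11 with the block. On control medium the reads were 12, 22 and 0 in the triple mutant and 2, 0 and 0 in Col-0. The difference between the media in the genotype effect was -6.59 (-10.7 to -2.52) and was not called over all genes, and the reads behind the control values are few. Of the other 9 measured DOF factors none was called (0.0278% over all genes). TMO6 (AT5G60200), a DOF factor of vascular tissue, had 20.7, 24.4 and 23.5 CPM in the triple mutant and 32.8, 25.4 and 25 CPM in Col-0 (log2 fold change -0.28, 95% interval -0.61 to 0.05).

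Genes of the root stem cell niche were called at none of 11 measured members, with a median of -0.03. Over all genes 0.0278% were called, so a count of 0 does not set this list apart, nor any other list here. PLT3 (AT5G10510), an AP2-type factor that maintains root meristems, had 38.3, 43.4 and 53.3 CPM in the triple mutant, against 74.0, 74.6 and 70.8 CPM in Col-0. The groups did not overlap, and the Col-0 libraries lay close together. Its log2 fold change was -0.70 (-1.04 to -0.36, edgeR adjusted p = 0.725), and DESeq2 called it (adjusted p = 0.0478). On control medium PLT3 had 56.5, 81.8 and 65.3 CPM in the triple mutant and 71.0, 90.4 and 90.6 CPM in Col-0, with overlap. Its relatives were closer to their Col-0 levels: PLT1 (AT3G20840) stood at a log2 fold change of 0.00 (-0.50 to 0.50) and PLT2 (AT1G51190) at -0.28 (-0.75 to 0.19). Among GRAS factors of the ground tissue and the niche, SHR (AT4G37650) stood at -0.03 (-0.32 to 0.27) and SCR (AT3G54220) at -0.02 (-0.27 to 0.23). WOX5 (AT3G11260), the marker of the quiescent centre, had 1.02, 3.14 and 0.929 CPM in the triple mutant and 2.50, 3.04 and 1.96 CPM in Col-0, with overlap.

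ARF5 (AT1G19850), the auxin response factor MONOPTEROS, had the lowest p of 26 measured auxin genes, of which none was called (0.0278% over all genes). It stood at 28.7, 36.4 and 36 CPM in the triple mutant, against 54.9, 47.5 and 45.3 CPM in Col-0. The groups did not overlap under bleomycin but did on control medium, at 29.9, 32.1 and 30.2 CPM in the triple mutant and 37.7, 31.6 and 34.5 CPM in Col-0. The log2 fold change under bleomycin was -0.55 (-0.82 to -0.28, edgeR adjusted p = 0.836). OPS (AT3G09070), a membrane protein gene of protophloem differentiation, had 14.9, 12.4 and 15.3 CPM in the triple mutant, against 27.3, 17.9 and 21.4 CPM in Col-0, without overlap (log2 fold change -0.64, -1.02 to -0.27, edgeR adjusted p = 1). OPS had the lowest p of 9 measured phloem markers, whose median was 0.01, and 5 of the 9 lay above 0.

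**Figure D4:**
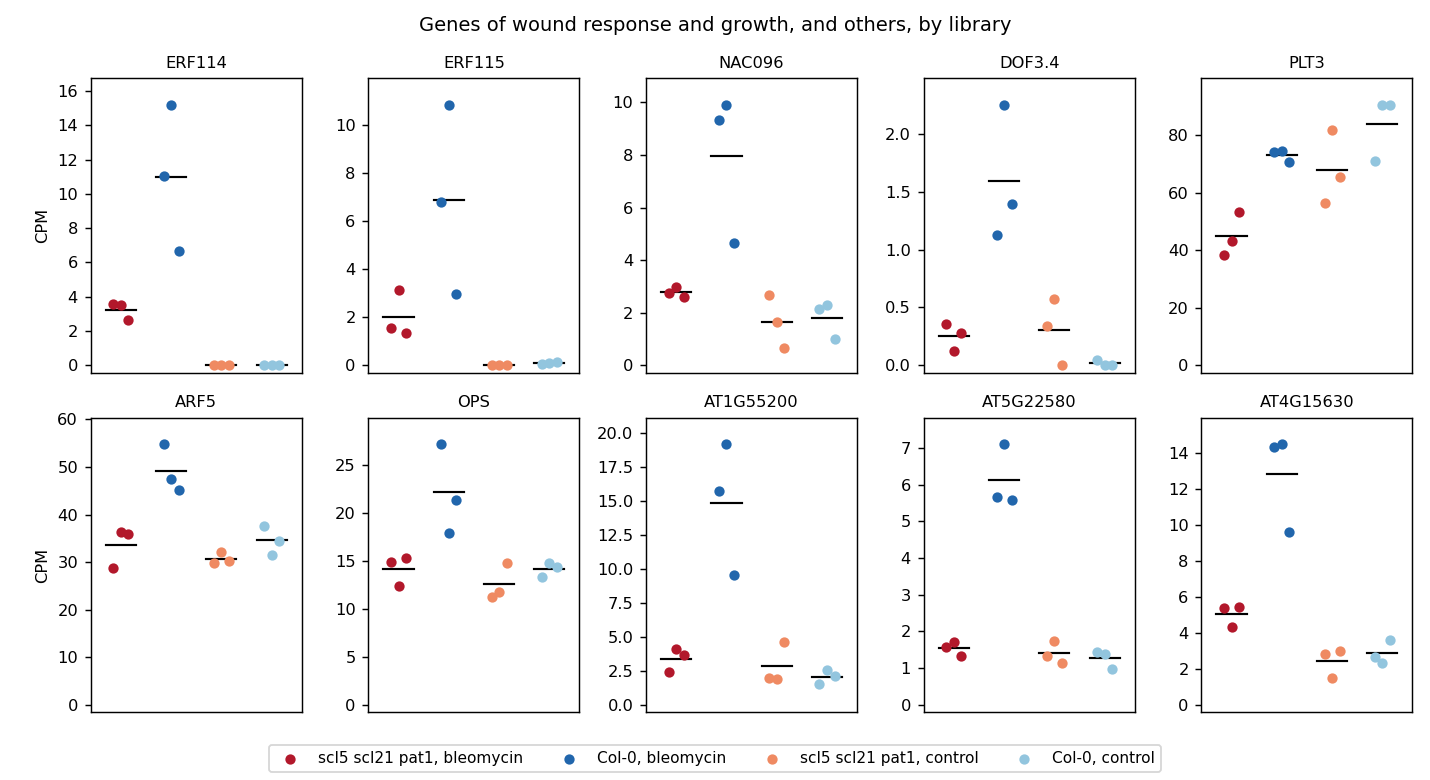
CPM by library for ERF114, ERF115, NAC096, DOF3.4, PLT3, ARF5 and OPS, and for 3 genes called only by other fits (AT1G55200, AT5G22580, AT4G15630); points are libraries in the order of their numbers, bars are group means, and the groups from left to right are triple mutant bleomycin, Col-0 bleomycin, triple mutant control and Col-0 control on linear axes. In each panel the Col-0 bleomycin mean is above the triple mutant bleomycin mean, and the libraries of these groups overlap at ERF115 alone; none of the 10 genes was called by the edgeR fit of 12 libraries.

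Genes of the DNA damage response lay close to a log2 fold change of 0 between the genotypes. None of 24 measured members was called and none was without overlap, shares that are 0.0278% and 5.1% over all genes, so counts of 0 do not set the list apart. The median log2 fold change was 0.02 with a range of -0.21 to 0.54. For 20 of the 24 the 95% interval lay within a 2-fold change. TSO2 (AT3G27060), a ribonucleotide reductase subunit, had 581, 458 and 421 CPM in the triple mutant and 546, 454 and 433 CPM in Col-0 (log2 fold change 0.03, 95% interval -0.27 to 0.32). Library 1 was the highest and library 3 the lowest in both genotypes. BRCA1 (AT4G21070), a repair gene, had 129, 123 and 112 CPM in the triple mutant and 122, 127 and 98.4 CPM in Col-0 (0.07, -0.44 to 0.57).

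PARP2 (AT4G02390), a poly(ADP-ribose) polymerase, had 136, 154 and 102 CPM in the triple mutant and 136, 147 and 106 CPM in Col-0, a log2 fold change of 0.01 (-0.37 to 0.39). SMR7 (AT3G27630), which inhibits cyclin-dependent kinases, had 57.9, 53.5 and 39.4 CPM in the triple mutant and 50.5, 62.1 and 40.2 CPM in Col-0 (-0.02, -0.70 to 0.66). Library 3 was the lowest of both genotypes at both genes. The member with the lowest p was AGO2 (AT1G31280), an Argonaute gene, at -0.21 (-0.51 to 0.09). In the list of recombination and end joining repair none of 20 was called (0.0278% over all genes), and 18 had an interval within 2-fold. KU70 (AT1G16970), a subunit of the end-binding complex, had the lowest p at -0.19 (-0.44 to 0.05).

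Genes of the cell cycle were likewise not called, where the share over all genes was 0.0278%, so counts of 0 do not set these lists apart. The 32 measured genes of mitosis and cytokinesis had a median log2 fold change of 0.01, and 31 had an interval within 2-fold. CYCA1;1 (AT1G44110), an A-type cyclin, had the lowest p, with 9.96, 9.73 and 13.5 CPM in the triple mutant and 7.49, 5.62 and 11.5 CPM in Col-0 (0.43, -0.17 to 1.03). The level of this list moved with the replicate number: relative to the mean of the 6 libraries its median was -0.03, -0.28 and 0.37 log2 units in the triple mutant and -0.24, -0.16 and 0.32 in Col-0, so library 3 was the highest of both genotypes.

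All 16 measured replication genes had an interval within 2-fold, with a median of -0.02 and CDC6 (AT2G29680), a licensing factor, at the lowest p (0.24, -0.07 to 0.56). CYCD3;3 (AT3G50070), a D-type cyclin of proliferating tissue, had 22.3, 20.15 and 26.1 CPM in the triple mutant and 21.1, 27.0 and 25.2 CPM in Col-0 (log2 fold change -0.09, 95% interval -0.43 to 0.24). Of the 9 measured D-type cyclins CYCD1;1 (AT1G70210) had the lowest p at 0.39 (-0.23 to 1.02). Of the 16 measured inhibitors of cyclin-dependent kinases, with a median of 0.06, SMR6 (AT5G40460) had the lowest p at 0.52 (-0.36 to 1.41).

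Hormone lists held no called gene (0.0278% over all genes). The 21 measured jasmonate genes had a median log2 fold change of -0.18, against -0.01 for all genes. Of the 21, 17 lay below 0, as did 53.4% of all genes. None of them had an unadjusted p below 0.05 or groups without overlap, shares that are 1.05% and 5.1% over all genes. On control medium the list's median was -0.28, against -0.01 for all genes. JAZ2 (AT1G74950), a jasmonate repressor gene, had 11.8, 17.2 and 26.6 CPM in the triple mutant and 11.6, 54.1 and 15.6 CPM in Col-0, so Col-0 library 2 alone stood high. Its log2 fold change was -0.55 (-1.56 to 0.46) and turned to 0.44 without that library. The list's median per library, relative to the mean of the 6, was -0.44, 0.15 and 0.07 in the triple mutant and -0.44, 0.61 and -0.02 in Col-0. ACO4 (AT1G05010), an ethylene-forming enzyme, was at -0.25 (-0.72 to 0.23) as the lowest p of 14 ethylene genes, and ARR7 (AT1G19050), a cytokinin response regulator read at under 1.3 CPM, was at -1.32 (-3.04 to 0.39) as that of 19 cytokinin genes.

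Stress and nutrient lists held no called gene either (0.0278% over all genes), and the member with the lowest p is given for each. GSTU20 (AT1G78370), a glutathione transferase, stood at a log2 fold change of 1.40 (-0.97 to 3.77) among 16 detoxification genes, and WRKY70 (AT3G56400), a defence regulator, at -0.68 (-1.59 to 0.22, or -1.43 to -0.03 with the block) among 8 genes of salicylic acid and camalexin. SCPL48 (AT3G45010), a carboxypeptidase, stood at -0.21 (-0.66 to 0.24) among 7 genes of developmental cell death. CSD1 (AT1G08830), a copper/zinc superoxide dismutase, had 61.4, 49.2 and 72.9 CPM in the triple mutant and 39.1, 45.4 and 59.0 CPM in Col-0, higher in the triple mutant within each number although the groups overlap. Its log2 fold change was 0.35 (-0.18 to 0.89), or 0.34 (0.04 to 0.65) with the block, and it was not called by either fit (edgeR adjusted p = 1 in both). MYB10 (AT3G12820), of iron deficiency, stood at 2.04 (-1.21 to 5.29) on at most 1.2 CPM, SPX1 (AT5G20150), a phosphate sensor, at 0.30 (-0.28 to 0.87), and NIA1 (AT1G77760), a nitrate reductase, at 0.32 (-0.67 to 1.31). HSP17.4 (AT3G46230), a small heat shock protein, stood at -3.38 (-7.08 to 0.32, or -8.06 to -0.12 with the block) on at most 0.329 CPM, and PRR5 (AT5G24470), of the clock, at 0.24 (-0.22 to 0.70).

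Levels of root cell type markers were compared as well, which do not measure the numbers of cells. Summed over its 4 genes, the root cap list ranged over 67.9 to 91.0 CPM in the triple mutant and 74.0 to 91.8 CPM in Col-0. The 10 epidermis and root hair markers summed to 503 to 768 CPM in the triple mutant and 637 to 674 CPM in Col-0, while the 9 endodermis markers summed to 549.5 to 921 CPM in the triple mutant and 467 to 910 CPM in Col-0. The 8 xylem markers, of which VND6 was under 1 CPM throughout, summed to 142 to 239 CPM in the triple mutant and 139 to 296 CPM in Col-0. The 9 phloem markers summed to 41.2 to 50.5 CPM in the triple mutant and 48.1 to 65.6 CPM in Col-0, so the ranges of all these lists overlapped. The 8 shoot markers summed to 8.86 to 16.1 CPM in the triple mutant and 10.4 to 19.0 CPM in Col-0, and 6 of them were under 1 CPM in every bleomycin library.

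No marker was called (0.0278% over all genes), and the member with the lowest p of each list is given, that of the phloem list being OPS above. Median log2 fold changes were 0.02 (root cap), -0.04 (epidermis), 0.12 (endodermis), -0.21 (xylem), 0.01 (phloem) and -0.10 (shoot). In that order 3 of 4, 3 of 10, 8 of 9, 1 of 8, 5 of 9 and 2 of 5 lay above 0. Over all genes 46.6% did. BRN2 (AT4G10350, root cap) stood at a log2 fold change of -0.14 (-0.48 to 0.20), WER (AT5G14750, epidermis) at 0.13 (-0.29 to 0.55), ESB1 (AT2G28670, endodermis) at 0.60 (-1.36 to 2.55), VND7 (AT1G71930, xylem) at -0.57 (-1.68 to 0.55) and LHCB2.1 (AT2G05100, shoot) at -2.51 (-5.72 to 0.71) on at most 0.576 CPM. The xylem list varied with the replicate number, its median per library being 0.35, -0.31 and -0.33 in the triple mutant and 0.68, -0.35 and 0.09 in Col-0 relative to the mean of the 6. Library 1 was the highest of both genotypes. The part of such differences in the wound and niche values above was not tested.

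**Figure D5:**
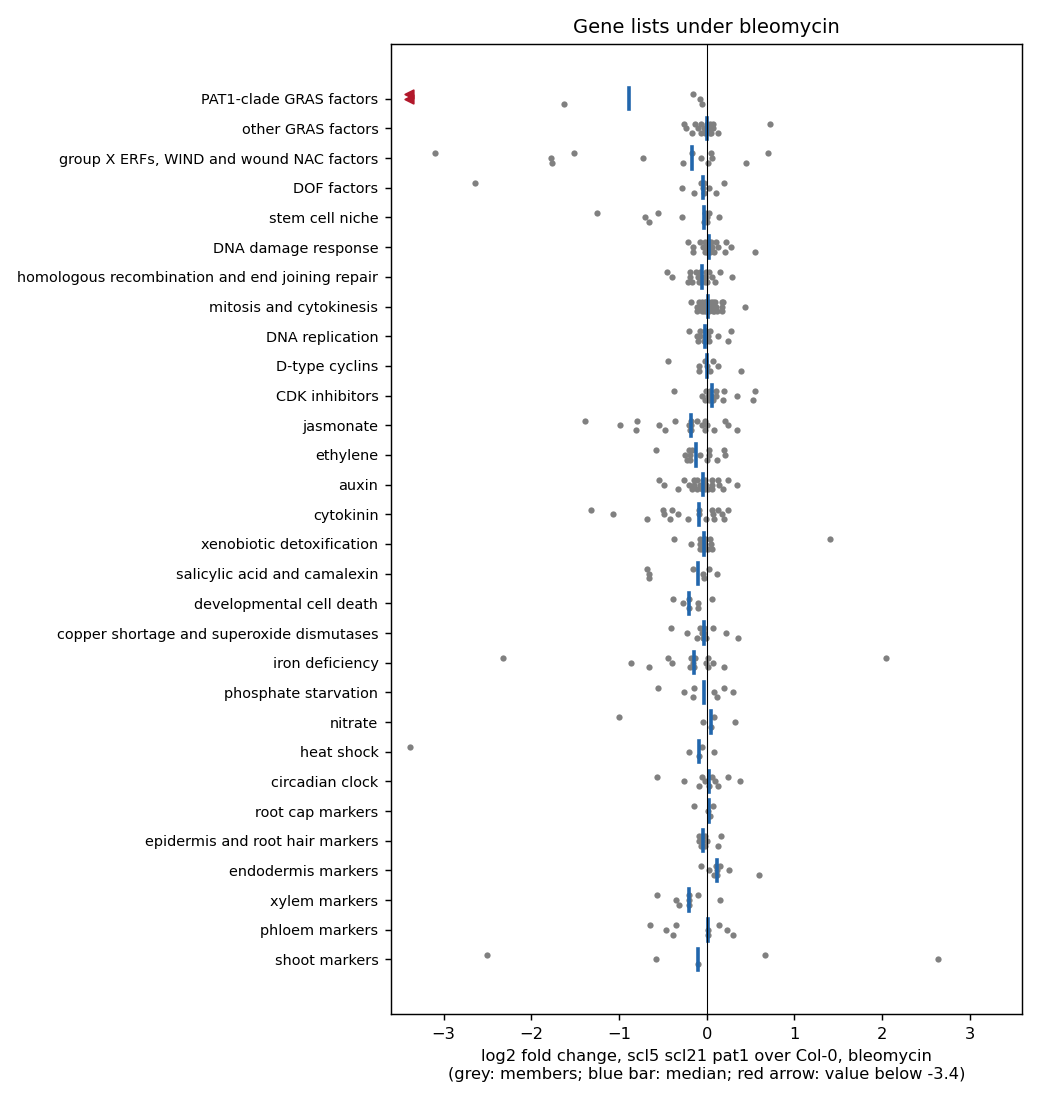
Log2 fold change of the triple mutant over Col-0 under bleomycin for the measured members of 30 gene lists, 1 list per row; grey points are genes, blue bars are list medians and red arrows mark values below the axis. The PAT1-clade list holds the 3 called genes, PAT1 at -1.62 and the arrows for SCL5 and SCL21, while the median of the damage response list lies at 0.02 and that of the mitosis list at 0.01.

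The genotypes were also compared on control medium, with libraries of their own, to place the bleomycin values. There 6 genes were called (0.0278% of 21561), 1 higher and 5 lower. The calls in the media had 5 genes in common, which is 5 of 6 in each: SCL5, SCL21, PAT1, AT2G04900 and AT1G64795. AT5G35940 was called under bleomycin alone and AT5G33395 on control medium alone, but the difference between the media was not called for either. Unadjusted p-values below 0.05 were found for 226 genes under bleomycin and 1034 (4.8%) on control medium. Triple mutant control 3, the library that stands apart, is 1 of the 3 triple mutant libraries here. Without it 4 genes were called on control medium, with PAT1 and AT5G33395 lost, and 632 (2.87%) had an unadjusted p below 0.05. With all libraries, groups without overlap were found at 1100 genes under bleomycin and at 2409 (11.2%) on control medium.

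The test of whether the genotype effect differed between the media called 0 of 21561 genes by edgeR (0%), with 377 at an unadjusted p below 0.05 (1.75%), and 0 by DESeq2 and by limma voom. Without triple mutant control 3 it again called 0, with 327 genes at an unadjusted p below 0.05 (1.48%). Some genes called by other fits under bleomycin, named after their values were seen, had groups that did not overlap under bleomycin and overlapped on control medium. AT5G22580, with a stress-responsive A/B barrel domain, had 1.56, 1.72 and 1.33 CPM in the triple mutant, against 5.66, 7.11 and 5.58 CPM in Col-0. On control medium it had 1.31, 1.74 and 1.14 CPM in the triple mutant and 1.45, 1.37 and 0.983 CPM in Col-0, so Col-0 under bleomycin was the 1 group that stood apart. The log2 fold change under bleomycin was -1.99 (SE 0.33, edgeR adjusted p = 0.109), and the difference between the media was -2.13 (95% interval -3.13 to -1.13, adjusted p = 1).

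AT1G55200, a kinase-like gene with an adenine nucleotide hydrolase-like domain, had 2.39, 4.09 and 3.67 CPM in the triple mutant, against 15.7, 19.2 and 9.58 CPM in Col-0. The control values were 2.00, 1.87 and 4.66 CPM in the triple mutant and 1.55, 2.53 and 2.12 CPM in Col-0. Under bleomycin its log2 fold change was -2.13 (SE 0.39, edgeR adjusted p = 0.187), and the difference between the media was -2.60 (-3.79 to -1.41, adjusted p = 1). AT4G15630, of an uncharacterised membrane protein family, had 5.41, 4.34 and 5.45 CPM in the triple mutant, against 14.3, 14.5 and 9.63 CPM in Col-0, and at both genes Col-0 library 3 was the lowest of its group. Its difference between the media was -1.10 (-2.0 to -0.21).

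Among genes with higher values in the triple mutant, CLE5 (AT2G31083), a signalling peptide gene, had the lowest p of those not called. It had 13.3, 15.2 and 15.2 CPM in the triple mutant, against 6.71, 8.12 and 6.89 CPM in Col-0. Values within each group were close, the groups did not overlap, and the log2 fold change was 1.01 (SE 0.17, edgeR adjusted p = 0.121). DESeq2 called it (adjusted p = 0.00047), as 1 of 3 genes that it called higher in the triple mutant. On control medium it had 32.4, 24.3 and 31.6 CPM in the triple mutant and 18.4, 17.9 and 12.8 CPM in Col-0, a log2 fold change of 0.85 (edgeR adjusted p = 0.362), again without overlap.

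AT1G67150, of a transmembrane family of unknown function, had 5.62, 5.25 and 6.20 CPM in the triple mutant and 2.88, 1.87 and 1.66 CPM in Col-0 (log2 fold change 1.41, SE 0.34, edgeR adjusted p = 1). AT3G48820, a sialyltransferase-like gene, had 40.0, 45.2 and 45.5 CPM in the triple mutant and 33.6, 35.5 and 34.9 CPM in Col-0 (0.33, SE 0.11, adjusted p = 1). Neither gene's groups overlapped. The remaining gene that DESeq2 called higher, SAE1B (AT5G50580), had 0, 16.1 and 3.64 CPM in the triple mutant and 0 reads in Col-0, and it shares reads with a near-identical copy (AT5G50680), so its values are uncertain.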

How the data were processed

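RNA-seq of root tips was analysed in 12 libraries, 3 in each of 4 groups taken from the labels. Per the submitters' processing notes the reads were quantified with Salmon 0.9.1. The build, annotation and strand setting behind them have no statement in the labels or headers, and coordinates are left out. The authors deposited, per the file headers, an estimated count and a TPM value for 88971 transcripts per library. The deposited estimated counts were summed per locus and rounded (37138 loci), leaving out 30576 transcripts of transposable elements (0.067% to 0.091% of reads). The ribosomal RNA locus AT3G41768 held 0.81% to 5.14% of reads. TPM values deposited by the authors were used for PAT1 transcripts alone. Names and neighbours come from a RefSeq table of TAIR10.1, which held 36899 of the loci.

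edgeR 4.0.16 (R 4.3.3) fitted 1 quasi-likelihood model over the 12 libraries by group, with TMM scaling and filterByExpr. A call is a Benjamini-Hochberg adjusted p under 0.05, and SE is the size of the log2 fold change divided by the root of F. CPM use the TMM-scaled library sizes. Each p-value measures the spread among these samples, and replicates differed beyond sampling noise (chi-square over degrees of freedom 56.9 to 101.1). The chi-square sums over loci and is weighted to the most abundant, with the ribosomal RNA locus among them. It does not give the spread of a typical gene. Counting intervals are at 95%, and they and the floor of 3 reads cover counting error only.

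Deviations of same-numbered bleomycin libraries from their group means correlated at 0.47, 0.24 and 0.28 across genes, against -0.30 to 0.04 for other pairs. On this ground the numbers were taken to pair the samples. Deviations from a group mean cancel out within the group, so higher values in same-numbered pairs go with lower values in the others. The low values of the other pairs are thus no separate evidence of pairing. The block over 12 libraries also joins the media, where same-numbered pairs were not always the higher. Triple mutant control 2 stood at -0.03 with Col-0 bleomycin 2. Col-0 control 3 stood at 0.14 with Col-0 bleomycin 2, against 0.13 for Col-0 control 2. The labels do not state a pairing. Alternatives were the replicate block, the 6 bleomycin libraries alone, other scalings and filters, DESeq2 1.42.0, limma 3.58.1 voom and a fold of 1.5. Each bleomycin library and triple mutant control 3 were also left out in turn, and the other control libraries were not.

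Members, the 30 lists (410 genes, described by counts and medians) and the rule for named genes were chosen with earlier results of these data known. The rule names SCL5, SCL21, PAT1, ERF115, DOF3.4 and CYCD3;3, called genes with at least 2 CPM and no overlap, the lowest p of each list, and rises filled by lowest p. Genes called only by other fits, further list members and neighbours were named after their values were seen.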

Additional observations from a re-analysis of the deposited data

How the results depend on the processing

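The count of 6 genes called under bleomycin became 10 with the replicate block over 12 libraries, 14 with the block over the 6 bleomycin libraries, 22 with DESeq2, 10 without a filter on low counts, and 10 without triple mutant control 3 (15 with the block as well, an alternative chosen after seeing the data). It was 5 against a fold of 1.5, and ranged from 5 to 8 when each bleomycin library was left out, and from 6 to 11 with the block, also chosen after seeing the data. The blocked fit and the fit without a filter called the same 10 genes. On control medium 6 became 25 with DESeq2, and the test between the media called 0 genes under each alternative run. Of the list members called, 3 became 5 with DESeq2, which added PLT3 and ERF114. Under bleomycin the block over 12 libraries added QQS, AT4G04223, AT5G33395 and MPL1 and lost no call. Over the 6 bleomycin libraries the block also called AT1G55200, AT5G22580, ERF114 and SADHU3-2. Some blocked fits with a library left out called AT1G23050, AT3G01205, AT2G23400 or AT3G15720. The causes of these shifts were not tested. Leaving out 1 library turned the sign of the log2 fold change, always of genes not called, over these ranges: BRCA1 -0.042 to 0.135 (-0.016 with the block), CYCD3;3 -0.2 to -0.012 (0.037 with the block), ILA -0.111 to 0.165 (-0.096 and -0.089 with the block), JAZ2 -0.914 to 0.44 (0.402 with the block), PARP2 -0.123 to 0.164 (-0.092 and -0.029 and -0.008 with the block), RGL3 -0.448 to 0.121 (0.107 with the block), SCL13 -0.207 to 0.132 (0.01 and 0.121 with the block), SCL8 -0.212 to 0.036 (0.036 with the block), SMR7 -0.167 to 0.146 (0.021 and 0.074 and 0.103 with the block), TSO2 -0.121 to 0.133 (-0.087 and -0.049 with the block), WER -0.072 to 0.246.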

Other observations

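At 4 loci, picked after their values were seen, Col-0 library 1 stood apart from Col-0 libraries 2 and 3 in both media, while the triple mutant libraries stayed low. The noncoding locus AT4G04223 had 0.823, 1.079 and 0.979 CPM in the triple mutant and 5.53, 44.5 and 39.4 CPM in Col-0 under bleomycin, and 0.800, 0.833 and 1.11 CPM in the triple mutant and 5.40, 46.7 and 41.3 CPM in Col-0 on control medium. AT5G38005, another noncoding locus, had 1.59, 2.45 and 1.28 CPM in the triple mutant and 4.86, 20.7 and 16.7 CPM in Col-0 under bleomycin. On control medium it had 2.03, 1.93 and 2.12 CPM in the triple mutant and 4.44, 22.6 and 22.4 CPM in Col-0, so library 1 was again the lowest of the Col-0 libraries.

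QQS and SADHU3-2 showed the reverse order, with Col-0 library 1 the highest. QQS had 0.0274, 0 and 0 CPM in the triple mutant and 15.3, 2.05 and 0.939 CPM in Col-0 under bleomycin, and 0.257, 0.0521 and 0 CPM in the triple mutant and 14.9, 2.96 and 2.95 CPM in Col-0 on control medium. SADHU3-2 (AT3G42658), a retroposon locus, had 0.110, 0.0981 and 0 CPM in the triple mutant and 7.24, 2.05 and 1.13 CPM in Col-0 under bleomycin. On control medium it had 0, 0.0781 and 0 CPM in the triple mutant and 5.65, 1.61 and 1.84 CPM in Col-0. These differences among Col-0 libraries were not tested.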
